A study of Saccharomyces cerevisiae with 16 samples.

Results

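The mitochondrial ribosomal protein genes of the budding yeast Saccharomyces cerevisiae are described here across microcolonies grown in alginate particles and across batch cultures of the same strain. Members were the genes whose R64 symbols begin with MRPL, MRPS, MRP or RSM followed only by digits, without MRP8. The rule found 66 of 6002 annotated protein-coding genes. By their RefSeq product names, 38 encode proteins of the large (54S) subunit and 27 proteins of the small (37S) subunit. The remaining member, RSM22, is named there as a tRNA methyltransferase and was kept apart from both subunits. The rule uses gene symbols and no measured value. All 66 passed the filter on low counts in both fits used below.

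Libraries of 6 groups were compared. All came from strain BY4741, a haploid of mating type a that carries his3, leu2, ura3 and met15 mutations, grown in rich medium (YPD). There were 2 libraries from ethanol-fixed small colonies (replicates 2 and 4) and 3 from ethanol-fixed big colonies (big), both sorted by particle size. A further 3 came from ethanol-fixed particles that were not sorted (total), and 2 from unsorted particles that were not fixed (nofix). Cells grown without particles gave 2 libraries at an absorbance (Abs600) of 2 (YPD2) and 2 at 0.5 (YPD05). They are described as biological replicates, without a statement on whether groups shared cultures or days. Transcript 3′ ends next to the poly(A) tail were sequenced (3′T-fill). A transcript then gives 1 tag whatever its length, so levels of different genes can be compared as CPM, tags scaled to a common library size, without a correction for length.

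The mitochondrial ribosome translates the few messenger RNAs made from mitochondrial DNA, in yeast mainly those of membrane subunits of the respiratory chain and of ATP synthase. Its RNAs are mitochondrial, while nearly all of its proteins are encoded in the nucleus, made in the cytosol and imported. In standard names the prefix u marks a family shared by all ribosomes, b one shared with bacteria and m one particular to mitochondria. Messenger RNAs of this class are the best known targets of Puf3, a yeast protein that binds a short element after the ORF and acts on their decay, localization and translation.

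The element was searched as TGTANATA, with N any base, in the 200 nt after the ORF on the transcript strand. It was found in 65 of the 66 genes (98.5%), RSM22 being the exception, and in 844 of all 6002 genes (14.1%). On the opposite strand of the same windows, 18.2% of the members and 13.2% of all genes held it. Among genes that work beside them, it was found in all 13 mitoribosomal protein genes with other names and in all 13 mitochondrial tRNA synthetase genes. The share was lower in the other lists for mitochondrial gene expression, with 9 of 12 translation factors (75%), 6 of 8 assembly and rRNA modification genes (75%), 13 of 17 translational activators (76.5%) and 1 of 2 transcription genes (50%). It was found in 6 of 138 cytosolic ribosomal protein genes (4.35%). A match is a description of the sequence, not a measured binding site.

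The matches below are the first ones after the ORF in the 6 most abundant members with a match and in the other members past the threshold of a test. They are shown because they are what this class shares apart from its function. Each line gives 30 bases of the R64 genome from RefSeq, 5′ to 3′ on the transcript strand, with the 8 matching bases in capitals.
MRPS16, chrXVI:528881-528910, minus strand: tatgtatatgtTGTATATAtgttttacttg
MRPL36, chrII:483850-483879, minus strand: ataaacagcctTGTATATAccgcaacatat
MRPL50, chrXIV:669719-669748, minus strand: gcgtacaatctTGTATATAggcaacatcgc
MRPL37, chrII:741638-741667, plus strand: tttggtatcctTGTAAATAaatatgtgtgt
MRP7, chrXIV:621243-621272, minus strand: ttaagaatgccTGTAAATAttactattttg
MRPL20, chrXI:599049-599078, minus strand: aataacaatcgTGTAAATActactctataa
MRPL24, chrXIII:650856-650885, plus strand: tggttttccccTGTATATAaaaaagcatat
MRPL35, chrIV:1111710-1111739, plus strand: ttatagtatccTGTACATAtaaaataacgt
MRPL31, chrXI:185225-185254, minus strand: aaaatttcatcTGTATATAgtttaatcatt
MRPL15, chrXII:760291-760320, plus strand: aaaaatttatcTGTAAATAgtgatcgaaat
MRPL44, chrXIII:720854-720883, minus strand: acaagcaagccTGTAAATAatatatatgca

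The 65 genes held 79 matches: 52 genes had 1, 12 had 2, and RSM19, the small-subunit protein uS19m, had 3. In the variable position 36 matches had A, 25 had T, 17 had C and 1 had G. A cytosine stood 2 bases before 52 of the 79 matches (65.8%), and before 204 of 844 matches in the other genes that hold the element (24.2%). Counted by gene, 52 of 65 members (80.0%) and 201 of 779 other genes (25.8%) had such a match. The first match began at a median of 51 nt after the ORF in the members (8 to 139 nt) and 60 nt in the other genes.

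The 3′ ends showed whether these stretches were kept in the transcripts. The median 3′ end of a member lay 10 to 206 nt after the ORF, with a median of 107 nt over the 66 genes. Over the 12 libraries without small colonies, at least 90% of a gene's tags ended past the first match in 51 of the 65 genes, and at least 50% did in 63. The typical gene kept its first match in 98.1% of its tags, and its median 3′ end lay 46 nt past it. The exceptions were MRPS18 (uS11m), with 42.9% of tags past the match, and MRPS16, with 11.5%. A second match at 165 nt in MRPL33 (uL30m) was kept in 11.1% of its tags.

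**Figure D1:**
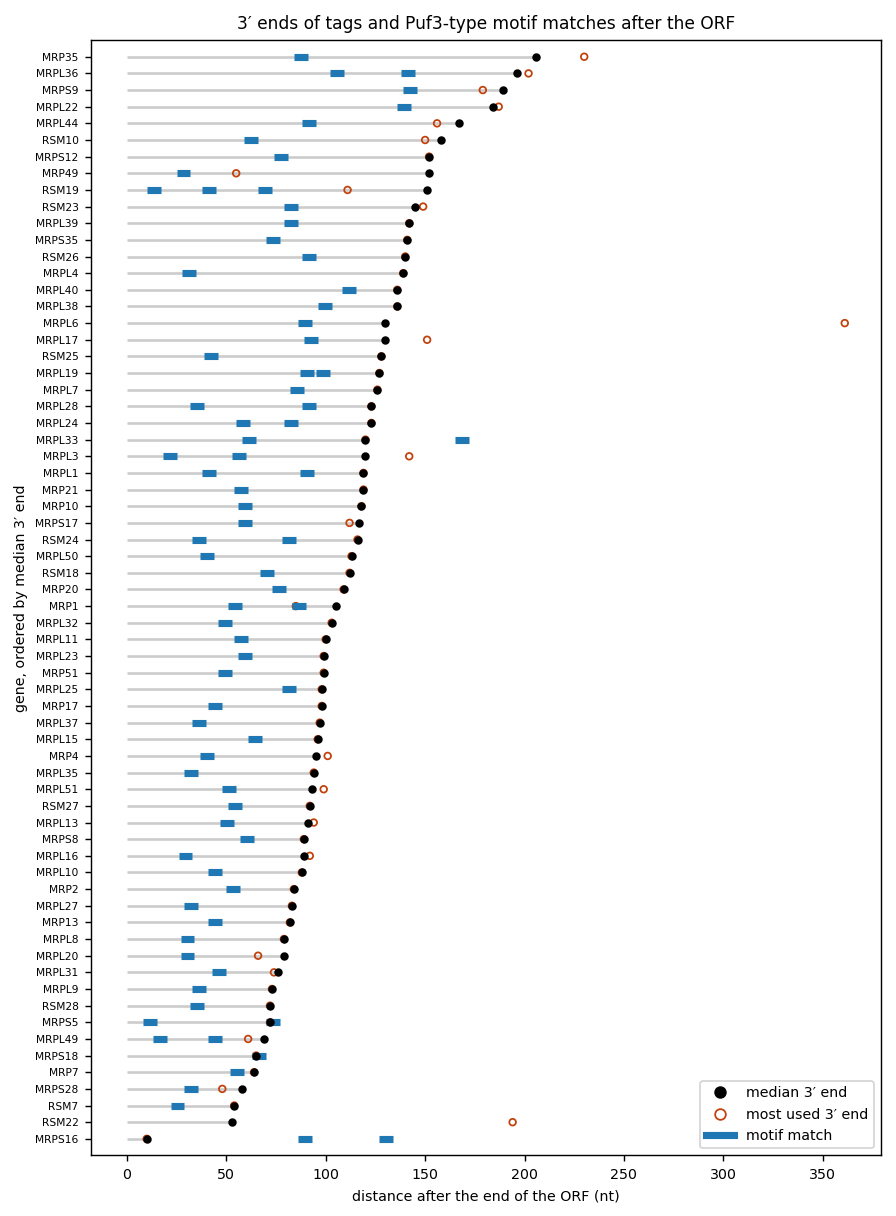
Distance in nt after the end of the ORF of the median 3′ end (filled circles), the most used 3′ end (open circles) and the matches to the Puf3-type element (bars) for the 66 genes, over the 12 libraries without small colonies. In 63 of the 65 genes with a match at least 50% of tags end past the first bar, and MRPS16, at the bottom, has its median end at 10 nt, before its first match.

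MRPS16, which encodes the small-subunit protein bS16m, needs care in every comparison below. Its tags ended mostly 8 to 10 nt after the ORF, in 75.01% to 94.1% of tags in 13 libraries and 24.2% in small replicate 4. The stretch after its ORF at chrXVI:528955-528984, minus strand, is shown because those ends lie directly before a genomic run of 15 adenines, given in capitals.
MRPS16, the 30 bases after the ORF: aaaagatcggAAAAAAAAAAAAAAAgaaaa
Ends at a poly(A) tail and ends that arise at this run cannot be told apart in these tags. MRPS16 carried 5.58% to 58.8% of the summed CPM of all 66 genes. Sums of CPM are therefore given without it, while shares of gene tags include it. Tags that ended past the run, more than 25 nt after the ORF, reached 139 to 495 CPM. MRPL27, MRPL37, MRP20 and RSM28 also had over 50% of their tags directly before A-rich genome. With MRPS16 that makes 5 of 66 members (7.58%), against 7.22% of 5239 genes with at least 100 tags.

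Library totals ran from 1506960 tags in total replicate 2 to 7871184 in small replicate 4, and 88.7% to 96.2% of tags fell on genes. Within groups, the log2 CPM of replicates correlated across genes at 0.867 to 0.945, and at 0.529 between the 2 small-colony libraries. Small replicate 2 detected 4399 genes and the other 13 libraries 5408 to 5651. Small replicate 4 is labelled as fixed small colonies in its title and description, but as unfixed under sample type. It was also barcoded in a read of its own. Small replicates 1 and 3 were excluded by the submitters for low quality.

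The members, MRPS16 included, took 0.553% to 1.54% of the gene tags of a library. Their median level over genes was 60.4 and 50.8 CPM in small colonies and 57.1, 77.1 and 78.5 CPM in big colonies. It was 80.7, 54.8 and 69.3 CPM in fixed unsorted particles, and 44.3 and 46.2 CPM in unfixed particles. Batch cultures had 86.4 and 83.2 CPM at an absorbance of 2 and 56.9 and 55.9 CPM at 0.5. The 2 unfixed libraries were thus the lowest of the 14 and the 2 at the higher batch density the highest. Without MRPS16, the 38 large-subunit genes together had 1.55 to 2.61 times the CPM of the fewer small-subunit genes in a library. By gene the subunits were alike. The median of mean CPM over the 12 libraries was 70.9 for the large subunit and 73.5 for the 27 small-subunit genes, MRPS16 among them.

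Levels within the class spanned a wide range although its subunit proteins share 1 particle. MRPS16 had the highest mean CPM over the 12 libraries (4139), followed by MRPL36 (bL31m, 581), MRPL50 (bL9m, 429) and MRPL37 (mL54, 302). Most tags of MRPS16 ended before its run of adenines, and those past it reached at most 495 CPM in a library. The lowest were MRPL23 (uL13m, 8.14), RSM22 (8.99, not named as a subunit protein), MRPL40 (uL24m, 9.55) and MRPL3 (mL44, 10.1). The median member was at 70.8 CPM, and the median of all genes tested at 44.9 CPM. The highest of the 12 libraries was a median of 4.20 times the lowest for the 65 members with tags in all 12. That ratio was under 3 for 18 members and over 10 for 9. MRPL7 (uL5m) had the smallest ratio.

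**Figure D2:**
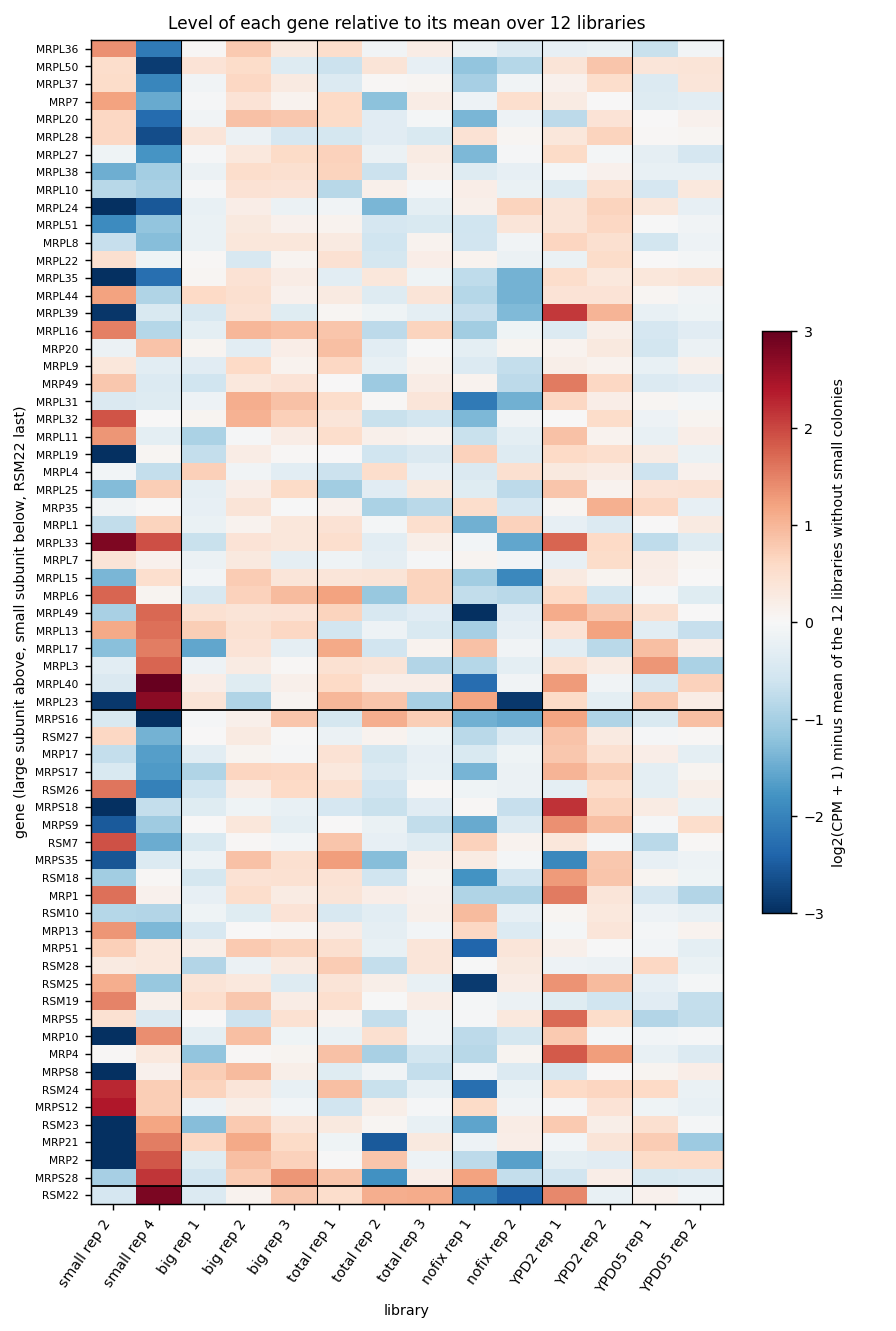
Level of each of the 66 genes (rows) in the 14 libraries (columns), as log2(CPM + 1) minus its mean over the 12 libraries without small colonies, with the colour scale ending at 3 in either direction. The 2 small-colony columns differ from each other along most rows, the nofix columns are mostly blue and the YPD2 columns mostly red.

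Small colonies were compared with big colonies, the contrast of colony size in the design. The large-subunit genes MRPL24 and MRPL35 were lower in small colonies, and none of the 66 was higher past the threshold of an adjusted p of 0.05. MRPL24 (bL28m) had 3.88 and 26.8 CPM in small colonies, against 137, 184 and 142 CPM in big colonies. Both small-colony libraries lay below all 3 big-colony libraries. The log2 fold change was -3.26 (SE 0.71, adjusted p = 0.0410, edgeR quasi-likelihood test with Benjamini-Hochberg adjustment). MRPL35 (mL38) had 6.46 and 23.7 CPM in small colonies, against 121, 159.7 and 136 CPM in big colonies. These groups did not overlap either, and its log2 fold change was -3.15 (SE 0.60, adjusted p = 0.0342, same test). Both small-colony libraries lay below all big-colony ones in 22.7% of the members and 16.05% of all genes tested. Such a separation alone does not set MRPL24 and MRPL35 apart. In bulk RNA, fewer cells that express a gene and less of its RNA per cell cannot be told apart.

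Of all 5521 genes tested, 0.706% were called lower and 0.561% higher in small colonies. The members had a median log2 fold change of 0.07, against 0.17 over all genes, with 35 of 66 above 0. Large- and small-subunit genes had medians of -0.05 and 0.07. These medians rest on libraries that differ widely: without small replicate 2 the members' median was -0.48, against 0.05 over all genes, and without small replicate 4 it was -0.33, against -0.83 over all genes. The members thus lay below all genes in one fit and above them in the other. The number of members called was 19 (28.8%, against 29.3% of all genes) without small replicate 2 and 22 (33.3%, against 35.4% of all genes) without small replicate 4, where the lone library is assumed to vary like the other groups. These shares are near those of all genes. Both calls were lost when any 1 big replicate was left out, when only the 2 groups were fitted, and when small replicate 3 was added, and in these fits no gene at all was called. In that last fit MRPL24 had a log2 fold change of 0.54 (adjusted p = 0.837, edgeR). Over all 12 alternatives its adjusted p ranged over 0.000258 to 0.837, and that of MRPL35 over 3.38e-05 to 0.537.

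Around these genes, DIA4, listed here among mitochondrial tRNA synthetases, had 0.646 and 5.27 CPM in small colonies, against 79.4, 37.8 and 30.8 CPM in big colonies (log2 fold change -3.84, SE 0.78, adjusted p = 0.0371, edgeR). It was the only gene past the threshold of the 63 tested in the 6 lists for mitochondrial translation and transcription. PUF3 itself, an mRNA of low abundance, had 132 and 80.0 CPM in small colonies, against 7.28, 5.17 and 3.42 CPM in big colonies (log2 fold change 4.32, SE 0.98, adjusted p = 0.0445, edgeR). DIA4 kept the call in 7 of 12 alternatives (adjusted p up to 0.549, edgeR or DESeq2) and PUF3 in 6 of 12. Tags of 4 alpha-type marker genes, which this strain should lack, summed to 124 and 487 in small colonies and to 1 to 37 in the other 12 libraries. In small replicate 2 those tags were all at SAG1, with MF(ALPHA)1, MF(ALPHA)2 and STE3 at 0, while small replicate 4 had tags of all 4. The 4 a-type markers MFA1, MFA2, STE2 and BAR1 summed to 853 and 2384 CPM in small colonies and to 391 to 1087 CPM in the other 12 libraries. Of these, MFA2 was called higher in small colonies (adjusted p = 0.0410, edgeR), a call kept in 6 of 12 alternatives. The part of either marker set in these results was not tested.

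Big colonies were compared with fixed unsorted particles. No member passed the threshold in either direction, nor did any of the 5443 genes tested (0%) with edgeR or DESeq2. At an unadjusted p under 0.05 there was 1 member, MRPS8 (uS8m), among 190 genes, named after its values were seen. MRPS8 had 52.0, 59.9 and 34.6 CPM in big colonies, against 23.8, 28.7 and 18.4 CPM in fixed unsorted particles. Its groups did not overlap, and its log2 fold change was 1.05 (SE 0.40, adjusted p = 1.00, edgeR). In 4.08% of all genes tested the big-colony libraries likewise all lay above the fixed unsorted ones. The members' median was 0.15, against -0.00 over all genes, and 44 of 66 were above 0. Cytosolic ribosomal protein genes had a median of 0.44.

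The fixed unsorted particles were set against the unfixed ones as a control for ethanol fixation. Of the members, 6 were higher in the fixed particles and none was lower: RSM22, MRPL31, MRPS16, MRPL15, MRPL44 and MRPL35. That is 9.09% of the class, against 10.5% of all genes called higher, so the count does not set the class apart. Of all genes, 9.59% were called lower. The members' median log2 fold change was 0.41, with 47 of 66 above 0, and that of all genes was 0.03. Cytosolic ribosomal protein genes had a median of 0.55. The 13 mitoribosomal genes with other names had a median of 0.24 with none past the threshold. Large- and small-subunit members had medians of 0.41 and 0.37.

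MRPL31 (mL60) had 84.4, 59.97 and 75.9 CPM in fixed unsorted particles, against 12.7 and 21.0 CPM in unfixed particles. All fixed libraries lay above both unfixed ones, and the log2 fold change was 2.13 (SE 0.47, adjusted p = 0.00474, edgeR). This large-subunit protein is one of those with no counterpart in bacteria. MRPL15 (mL57), another, had 27.9, 28.7 and 35.0 CPM in fixed particles, against 10 and 4.92 CPM in unfixed particles (log2 fold change 2.04, SE 0.55, adjusted p = 0.0167, edgeR). MRPL44 (mL53), the only member with an intron, had 138, 86.9 and 149.6 CPM in fixed particles, against 61.8 and 41.6 CPM in unfixed particles (log2 fold change 1.29, SE 0.37, adjusted p = 0.0221, edgeR). MRPL35 had 94.2, 148 and 106 CPM in fixed particles, against 69.1 and 42.9 CPM in unfixed particles. It was closest to the threshold, with a log2 fold change of 1.06 (SE 0.36, adjusted p = 0.0493, edgeR). The groups of each of these genes were apart. All fixed libraries lay above both unfixed ones in 23.7% of all genes tested.

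MRPS16 had 2384, 7356 and 5768 CPM in fixed particles, against 1261 and 1185 CPM in unfixed particles. The fixed libraries varied by more than the lowest of them exceeded the unfixed ones. Its log2 fold change was 2.09 (SE 0.63, adjusted p = 0.0299, edgeR). Its tags past the run of adenines were at 423, 292 and 495 CPM in fixed particles and at 188 and 164 CPM in unfixed particles. These did not overlap either. With tags before A-rich genome left out the log2 fold change was 1.38 (adjusted p = 0.00743, edgeR), and over 13 alternatives its adjusted p ranged over 0.00243 to 0.210.

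RSM22 had the largest fold change of the class from very few tags. It had 52, 18 and 46 tags in fixed particles, or 10.2, 15.6 and 15.9 CPM, against 2 and 1 tags, or 0.909 and 0.447 CPM, in unfixed particles. The ratio of the summed rates was 18.8 (95% exact interval 6.28 to 92.6, counting error only). The fitted log2 fold change was 4.28 (SE 1.02, adjusted p = 0.00843, edgeR). RSM22 is also the only member without the element. The mRNA of PUF3 had 3.34, 25.2 and 11.1 CPM in fixed particles and 0 tags in both unfixed libraries, where 3 tags over the group would be 0.676 CPM. Its summed rate in fixed particles was 12.7 times that floor, and 9.10 times without total replicate 2 (adjusted p = 0.00734 with all libraries, edgeR). Counting error of the tags in fixed particles is not included.

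In the other lists, 3 genes passed. MRM1, a methyltransferase of the mitochondrial large ribosomal RNA, had 195, 238 and 151 CPM in fixed particles, against 37.3 and 50.05 CPM in unfixed particles (log2 fold change 2.16, SE 0.40, adjusted p = 0.00146, edgeR). PET309, an activator of COX1 mRNA translation, had 51.4, 33.9 and 33.9 CPM in fixed particles, against 13.6 and 14.3 CPM in unfixed particles (log2 fold change 1.52, SE 0.52, adjusted p = 0.0492, edgeR). DIA4 was lower, with 27.3, 46.9 and 43.6 CPM in fixed particles, against 122 and 114 CPM in unfixed particles (log2 fold change -1.58, SE 0.45, adjusted p = 0.0214, edgeR). MRM1 kept the call in 12 of 13 alternatives and DIA4 in 8, but PET309 in only 2, with adjusted p up to 0.548 (edgeR or DESeq2).

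A pair of library measures moved with this contrast. Tags at no gene made 3.07% to 4.62% of the fixed libraries and 7.51% and 9.11% of the unfixed ones. Of tags with a gene on only 1 strand, 96.3% to 97.8% in the fixed libraries matched its transcript strand. In the unfixed ones 92.5% and 93.7% did. Their part in the result was not tested. With the small colonies in the same fit, 1 member passed, MRPL31 (adjusted p = 0.0390, edgeR; 0.000149 to 0.0648 over 13 alternatives), instead of 6, and 5.87% of all genes. Of the fits that left out 1 library, MRPL31 lost the call without nofix replicate 1 (adjusted p = 0.0648, edgeR), and RSM22 and MRPL15 without nofix replicate 2 (0.0555 and 0.111). MRPL44 lost it without total replicate 1, total replicate 3 or nofix replicate 2 (0.0582, 0.0705 and 0.164). MRPS16 lost it without total replicate 2 or 3 or without either nofix library (0.0914, 0.0663, 0.150 and 0.143), and MRPL35 lost it in each of the 5 fits (0.0541 to 0.283). Without total replicate 3, 3 members (4.55%) and 15.3% of all genes passed.

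Unfixed particles were compared with batch cultures at an absorbance of 0.5 to ask about growth in alginate itself. Of the large-subunit genes 3 were lower in unfixed particles, 4.55% of the class, against 7.05% of all genes. None was higher, against 5.38% of all genes. These comparisons share the unfixed libraries with the previous one, so their values are not independent of it. The same library measures differed here. Tags at no gene made 3.10% and 3.48% of the batch libraries, against 9.11% and 7.51% of the unfixed ones. Of tags with a gene on only 1 strand, 97.7% and 97.5% matched its transcript strand, against 92.5% and 93.7%. The part of these measures in the result was not tested. MRPL31 had 12.7 and 21.0 CPM in unfixed particles, against 60.6 and 56.2 CPM in batch cultures (log2 fold change -1.79, SE 0.49, adjusted p = 0.0263, edgeR). MRPL35 had 69.1 and 42.9 CPM in unfixed particles, against 149 and 154 CPM in batch cultures (log2 fold change -1.44, SE 0.39, adjusted p = 0.0252, edgeR). MRPL50, the large-subunit protein bL9m, had 172 and 217 CPM in unfixed particles, against 512 and 514 CPM in batch cultures. Its log2 fold change was -1.40 (SE 0.41, adjusted p = 0.0380, edgeR). Each of the 3 had both unfixed libraries below both batch libraries, as did 31.6% of all genes tested.

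The members' median here was -0.21, against -0.02 over all genes, with 46 of 66 below 0. Cytosolic ribosomal protein genes had a median of -1.17 with 36 of 138 called lower and 1 higher. MRM1 had 37.3 and 50.05 CPM in unfixed particles, against 158 and 167 CPM in batch cultures (log2 fold change -1.90, SE 0.42, adjusted p = 0.00892, edgeR). PUF3, with 0 tags in unfixed particles, had 3.76 and 6.33 CPM in batch cultures and was called lower in unfixed particles (adjusted p = 0.0373, edgeR). Its summed rate in batch cultures was 7.08 times that of 3 tags over the unfixed group, without counting error of the batch tags. PUF3 kept this call in 4 of 11 alternatives, with adjusted p up to 0.255 (edgeR or DESeq2), and MRM1 in 9 of 12. RSM22 had 0.909 and 0.447 CPM in unfixed particles, against 7.52 and 6.33 CPM in batch cultures, and missed the threshold (adjusted p = 0.0543, edgeR). No member passed when the small colonies were in the same fit (1.94% of all genes), nor without batch replicate 1 or 2 (4.45% and 3.17% of all genes), and without nofix replicate 1 there was 1 (5.10% of all genes).

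**Figure D3:**
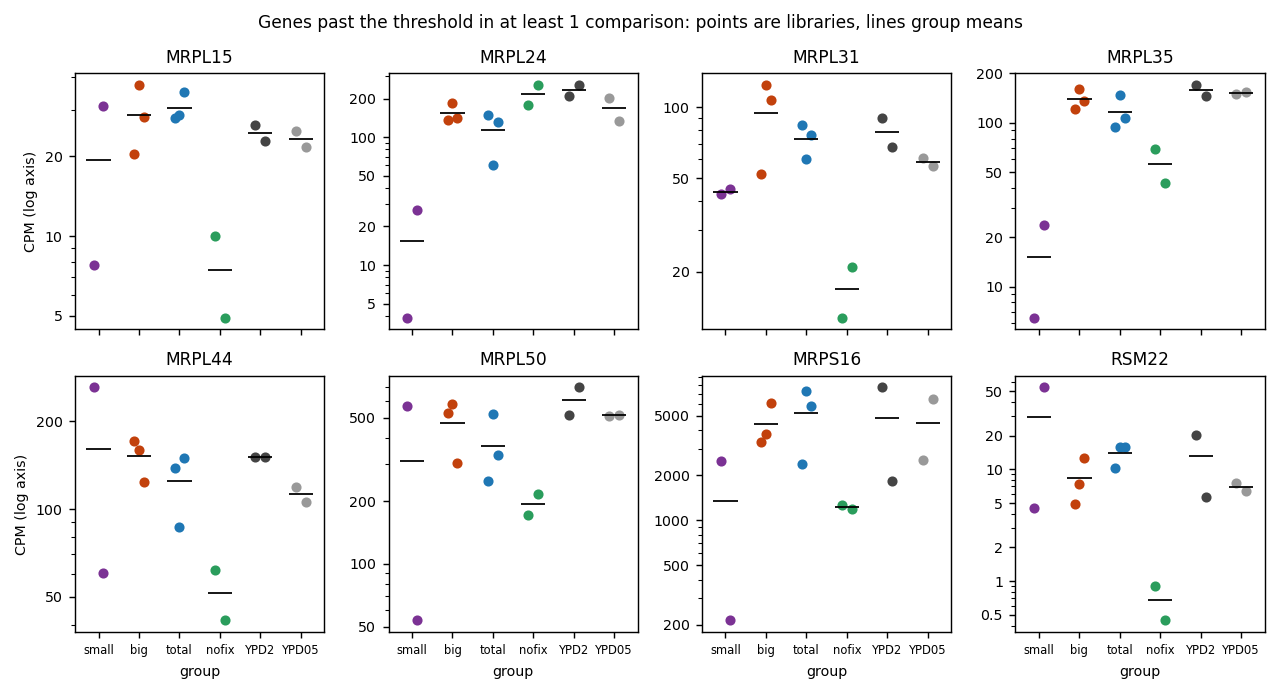
CPM in each library (points) and group means (lines), on a log axis, of the 8 genes past the threshold in at least 1 comparison. MRPL24 and MRPL35 have their lowest points in small colonies, and the nofix points of MRPL15, MRPL31, MRPL44, MRPL50 and RSM22 lie below those of total, YPD2 and YPD05.

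Fixed unsorted particles were also set against batch cultures at an absorbance of 0.5. No member and none of the 5443 genes (0%) passed with edgeR, where 1 member and 431 genes had an unadjusted p under 0.05, while DESeq2 called 32 genes and no member. The members' median log2 fold change was 0.09, against 0.03 over all genes and -0.61 in cytosolic ribosomal protein genes. MRPL31 had 84.4, 59.97 and 75.9 CPM in fixed particles, against 60.6 and 56.2 CPM in batch cultures, and MRPL35 had 94.2, 148 and 106 CPM, against 149 and 154 CPM.

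Batch cultures at the 2 densities were compared to describe the class without particles or fixation. Of the 66 genes, 58 had a higher mean level at an absorbance of 2 than at 0.5, with a median log2 fold change of 0.40, against 0.03 over all genes. Cytosolic ribosomal protein genes had a median of -0.79. No member passed the threshold, nor did any of the 5443 genes (0%) with edgeR, where 10 members and 540 genes had an unadjusted p under 0.05. Both libraries at an absorbance of 2 lay above both at 0.5 in 32 members (48.5%), against 24.2% of all genes. They lay below in 4 members (6.06%), against 21.8% of all genes. In related lists they lay above in 6 of 13 mitoribosomal protein genes with other names (46.2%, median log2 fold change 0.29) and in 4 of 11 mitochondrial translation factors (36.4%, median 0.51). Large- and small-subunit genes each had a median of 0.39.

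The 3 members with the smallest p-values, chosen after their values were seen, show the size of these differences. MRPS5 (uS5m) had 134 and 60.1 CPM at an absorbance of 2, against 21.6 and 23.9 CPM at 0.5 (log2 fold change 2.10, SE 0.54, adjusted p = 0.135, edgeR). MRP1 (mS43), of the small subunit, had 206 and 88.7 CPM at 2, against 48.4 and 37.3 CPM at 0.5 (log2 fold change 1.78, SE 0.46, adjusted p = 0.136, edgeR). MRPL39 (bL33m), of the large subunit, had 418 and 192 CPM at 2, against 80.8 and 86.5 CPM at 0.5 (log2 fold change 1.87, SE 0.46, adjusted p = 0.120, edgeR). The densities did not overlap in any of the 3, although the 2 libraries at an absorbance of 2 also differed from each other. DESeq2 called these 3 genes and no other member, among 103 genes.

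**Figure D4:**
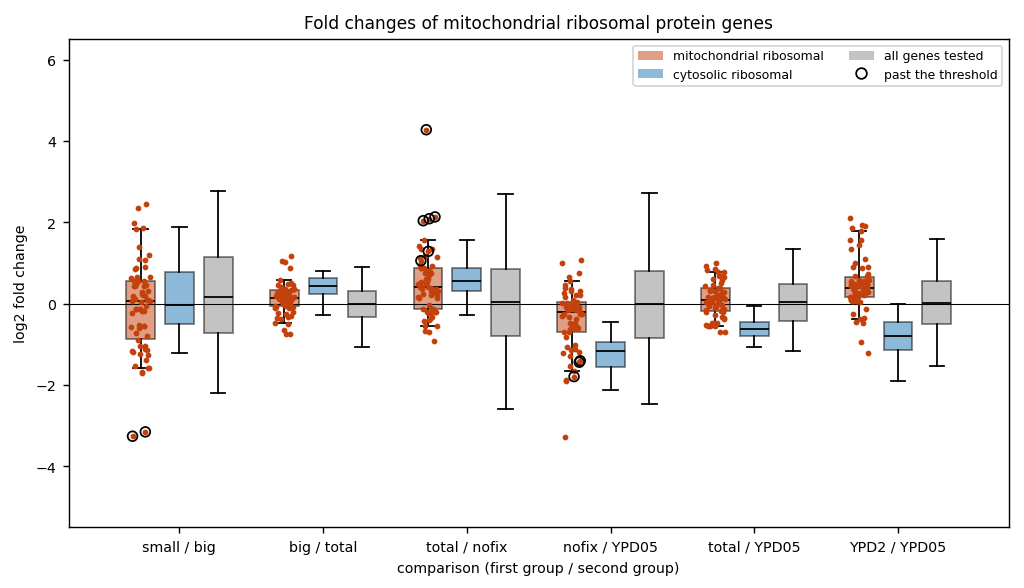
Log2 fold changes of the 66 mitochondrial ribosomal protein genes (points and first box), 138 cytosolic ribosomal protein genes (middle box) and all genes tested (last box) in 6 comparisons, with boxes from the 25th to the 75th percentile, whiskers from the 5th to the 95th and rings on members past the threshold. Members and cytosolic genes have medians of 0.40 and -0.79 in YPD2 over YPD05 and of 0.41 and 0.55 in total over nofix.

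Shifts of 3′ ends could be tested in 32 members among 2092 genes with enough tags. With limma, no member passed in big colonies against fixed unsorted particles (0% of all genes), in fixed against unfixed particles (6.26%), in unfixed particles against batch cultures (4.83%) or between batch densities (0.335%). At an unadjusted p under 0.05 there were 0, 6, 3 and 5 members in these comparisons in turn, or 0%, 18.8%, 9.38% and 15.6% of the 32, against 1.20%, 20.9%, 16.5% and 14.96% of all genes. Between batch densities, 30 of 32 members had ends closer to the ORF at an absorbance of 2, with a median shift of -8.50 nt, against -11.3 nt over all genes. Most genes moved the same way, since 339 of the 2092 had ends farther from the ORF. MRP1, the second match of which lies 83 nt after the ORF, had mean ends at 85.9 and 54.5 nt at an absorbance of 2, against 99.4 and 107 nt at 0.5 (shift -31.6 nt, SE 11.4, adjusted p = 0.284, limma). Its second match was kept in 4.02% and 25.5% of tags at 2, against 69.9% and 64.2% at 0.5. MRPS18 kept its only match in 4.34% and 31.6% of tags at 2, against 45.5% and 37.6% at 0.5. These genes were chosen after their values were seen.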

How the data were processed

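The authors deposited unnormalized counts of 3′ end tags in 16 libraries, listed by strand at 542908 genome positions. The submitters' processing notes name CASAVA 1.8.2, GSNAP and the builds R64 and sacCer3. Their roles, and any removal of duplicate reads, are not given in the sources used here, and intervals cover only counting error. Titles and barcodes tied columns to samples, except that of small replicate 4, tied by its replicate number.

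The strand in the table was opposite to that of the transcripts and was turned. After turning, 90.9% to 98.1% of tags in the 14 libraries tested lay on a transcript strand. A tag counted for a gene in the ORF or up to 400 nt past it, before the next gene on that strand. For 22 members the next gene shortened that window, for none to under 200 nt. Genes came from RefSeq's R64 annotation.

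Counts were tested with edgeR 4.0.16 (quasi-likelihood, robust, TMM, filterByExpr) in R 4.3.3, at a Benjamini-Hochberg adjusted p under 0.05. Small against big colonies used 14 libraries (5521 genes, 8 residual degrees of freedom). The other comparisons used the 12 libraries without small colonies (5443 genes, 7 residual degrees of freedom), because the small libraries differ so much from each other. SE is the size of the log2 fold change over the square root of F. CPM uses the TMM factors of the 14 libraries. 3′ end positions are mean distances from the ORF, tested with limma 3.58.1 where each of 12 libraries had 50 or more tags, weighted by tags up to 200. A-rich means at least 8 adenines in the next 10 genomic bases. Alternatives were DESeq2 1.42.0, its size factors, no filter, a 200 nt window, other sets of libraries, a replicate block and leaving out libraries. Tables and figures used Python 3.11.15 with matplotlib 3.10.9, numpy 2.4.6 and pandas 2.3.3. The fits were checked on simulated data.

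The rule for members reads only symbols, but the class, the lists and the tests were chosen with earlier results of these data known. Named genes were members past the threshold, up to 6 per direction, the 4 highest and 4 lowest by mean CPM, PUF3, and up to 4 list genes past the threshold per comparison, and all others, among them MRPS8, MRPS18, MRPL7 and MRPL33, were chosen after their values were seen. MRP35 was counted in the large subunit by its RefSeq product, bL35m, although its symbol had first placed it in the small one. P-values measure the spread between these libraries.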

Additional observations from a re-analysis of the deposited data

Results flagged for a closer look

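The 2 small-colony libraries that the submitters excluded also held tags of these genes. In small replicate 1, 209 of 10303 gene tags lay on members, 2.03% (95% exact binomial interval 1.77% to 2.32%). They came from 28 members, with 168 of them at MRPS16. In small replicate 3, 5775 of 752974 gene tags lay on members, 0.767% (0.747% to 0.787%), from 48 members, with 753 at MRPS16. They are given here because no comparison used these libraries. These shares include MRPS16, and the 14 libraries tested ranged from 0.553% to 1.54%.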

How the results depend on the processing

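The number of members called in small against big colonies, 2 in the fit described, was 6 with DESeq2, 0 with the 2 groups alone, 0 with small replicate 3 added and 0 to 22 with 1 library left out. Of all genes, 1.27% were called in the fit described and 11.01%, 0%, 0% and 0% to 35.4% in these alternatives in turn. In fixed against unfixed particles, 6 became 3 with the 2 groups alone (16.1% of all genes) and 1 with all 14 libraries (5.87%). With 1 fixed library left out it was 3 or 4, against 14.8% to 17.4% of all genes. In the fit without nofix replicate 2, RSM22, MRPL15, MRPL44, MRPS16 and MRPL35 lost their calls. Counts from fits with 1 unfixed library are left out of this range. In unfixed particles against batch cultures, 3 became 6 with DESeq2, 5 without tags before A-rich genome (chosen after seeing the data), 0 with all 14 libraries and 0 to 4 with 1 library left out, against 18.3%, 12.5%, 1.94% and 3.17% to 8.32% of all genes. Between batch densities, 0 became 3 with DESeq2, against 1.89% of all genes. Shifted 3′ ends, 0 in each comparison, became 1 with the 200 nt window in fixed against unfixed particles (6.10% of all genes). With 1 library left out they ranged over 0 to 5 there, 0 to 3 in unfixed particles against batch cultures and 0 to 2 between batch densities. The highest counts were 5 of 32 (15.6%), 3 of 32 (9.38%) and 2 of 32 (6.25%), against 15.4%, 15.3% and 9.10% of all genes in the same fits. MRPL24 in small against big colonies reversed to 0.54 with small replicate 3 added. The members' median kept its sign in every alternative for big against total, total against nofix, nofix against YPD05 and YPD2 against YPD05. DESeq2's size factors moved the median of all genes in small against big colonies to 0.35, against 0.17 with TMM, and that of the members to 0.23, against 0.07. Genes called overall in the fits described, with DESeq2 and with all 14 libraries were 1092, 1301 and 324 in fixed against unfixed particles and 677, 996 and 107 in unfixed particles against batch cultures. Small against big colonies gave 70 and, with DESeq2, 608.

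Replicate numbers are shared by most groups, but same-numbered libraries did not deviate together (correlations across genes of -0.168 to 0.201). A replicate block left 4 members called in fixed against unfixed particles and 3 in unfixed particles against batch cultures, among 842 and 599 of 5443 genes, and 0 in the others. With the numbers of the 2 batch libraries at an absorbance of 2 exchanged, because the same-number correlation of the 2 batch groups was -0.168, 0 members and 7 genes passed. No paired analysis was possible for small against big colonies because they share only replicate number 2.

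Depth limits RSM22, whose 3 tags in the unfixed libraries leave the interval of its ratio at 6.28 to 92.6. MRPL23 had 0 tags in small replicate 2 and in nofix replicate 2, against 35 in nofix replicate 1, and MRP21 had 0 in small replicate 2. The cause was not tested.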
